A study of Homo sapiens with 20 samples.

Results

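The sites described here are promoter sites of the transcription factor MYC that lack the canonical E-box, the palindromic hexamer CACGTG. Peak summits of 6 MYC chromatin immunoprecipitation libraries were pooled, and summits 250 bp or less apart were joined into sites. A site was kept when its median summit was at most 1 kb from where a protein-coding transcript begins (its transcription start site, TSS) and when CACGTG was absent within 100 bp on either side of that summit. The rule found 1237 sites among 2348 MYC sites (52.7%), or 72.1% of the 1716 promoter sites. The other 479 promoter sites held CACGTG and are called E-box sites below. The rule used position and sequence and no rank, presence by library or POL2 summit, although nearness to a coding start itself bears on POL2 overlap.

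The study profiled MYC and RNA polymerase II (POL2) by ChIP-seq in PC-3, an established line of prostate cancer cells. Wild-type (WT) cells were set beside SLK-knockout cells of the line named PSD10 (SLK-KO), grown under the same standard conditions. SLK is a STE20-like protein kinase known for roles in the cytoskeleton, and the labels do not say whether PSD10 is 1 clone. Each genotype had 3 MYC and 3 POL2 libraries, described as biological replicates.

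MYC is a basic helix-loop-helix leucine zipper protein that binds DNA as a dimer with MAX. The dimer contacts CACGTG most tightly and a set of related hexamers, the variant E-boxes, more weakly. MYC is found at active, CpG-rich promoters, and genes for ribosome production, translation and nucleotide synthesis are its best known targets. Searches for 5 variant forms were run on both strands: CATGTG and CATGCG and CACGCG and CACGAG and AACGTG. The string GCATGCGC, bound by the factor NRF1, contains CATGCG, so the 2 searches overlap.

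The sequences below show how the variant forms sit at these sites. The first 5 sites were found in all 6 MYC libraries, RPL14 and MRPL42 are ribosomal protein genes, and TAF1 and RUVBL1 are examples with no variant form. Each line gives 50 bases on either side of the median summit on the plus strand of GRCh38, in windows with no annotated UTR base, and capitals mark variant E-boxes in either orientation.
LARP1: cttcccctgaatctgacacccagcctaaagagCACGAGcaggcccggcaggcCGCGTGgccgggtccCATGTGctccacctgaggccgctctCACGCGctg
REPIN1: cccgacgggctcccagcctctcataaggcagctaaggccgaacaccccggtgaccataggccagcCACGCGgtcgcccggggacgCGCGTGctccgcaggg
ING5: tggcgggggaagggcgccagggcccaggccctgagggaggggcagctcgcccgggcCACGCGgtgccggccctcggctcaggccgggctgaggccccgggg
POLR3A: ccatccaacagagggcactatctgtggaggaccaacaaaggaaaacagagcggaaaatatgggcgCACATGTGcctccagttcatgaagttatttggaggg
GCN1: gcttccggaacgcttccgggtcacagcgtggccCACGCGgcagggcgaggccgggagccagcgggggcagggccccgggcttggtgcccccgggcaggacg
RPL14: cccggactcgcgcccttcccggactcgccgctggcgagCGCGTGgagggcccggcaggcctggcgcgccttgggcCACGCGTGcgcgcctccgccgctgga
MRPL42: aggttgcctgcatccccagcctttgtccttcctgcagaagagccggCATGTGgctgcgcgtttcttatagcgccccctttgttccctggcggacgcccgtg
TAF1: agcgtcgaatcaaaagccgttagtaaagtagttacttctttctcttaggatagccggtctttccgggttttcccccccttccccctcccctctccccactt
RUVBL1: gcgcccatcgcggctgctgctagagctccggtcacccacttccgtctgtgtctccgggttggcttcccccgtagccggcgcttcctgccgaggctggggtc

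The LARP1 window lies at chr5:154754913-154755013 and the REPIN1 window at chr7:150368443-150368543. Both fall in introns of coding transcripts. The ING5 window at chr2:241701466-241701566 is also intronic. The windows of POLR3A at chr10:78029899-78029999 and GCN1 at chr12:120194722-120194822 have their summits outside coding transcripts, upstream of the start. Those of RPL14 at chr3:40457517-40457617 and MRPL42 at chr12:93467665-93467765 are intronic, TAF1 at chrX:71366113-71366213 is upstream of its start, and RUVBL1 at chr3:128123895-128123995 lies in an intron of a coding transcript, upstream of the nearest start. The LARP1 window holds 3 different variant forms and POLR3A holds CACATGTG, in which a CATGTG copy can be read on each strand.

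The MYC lists were of unequal length, and the files hold no read counts, so sequencing depth is unknown. WT lists held 365, 201 and 267 summits and SLK-KO lists 1218, 1420 and 988, in the order of the replicates. POL2 lists ranged from 5047 to 19017 summits. The deposited score, read here as a −log10 q-value within each library, was used only to rank or filter summits inside a list. POL2 summits lay at the epithelial keratin genes KRT8, KRT18 and KRT19 in all 6 POL2 libraries, at EPCAM in 1 WT and 3 SLK-KO libraries, and at none of 4 blood markers. POL2 was found at 1 of 4 fibroblast markers (COL1A1, in 2 WT and 2 SLK-KO libraries) and at neither KLK3 nor KLK2. TMPRSS2, like these a gene of the androgen response, had POL2 in all 6 libraries. POL2 lay at the SLK promoter in 2 WT and 3 SLK-KO libraries, which does not check the knockout, since editing of a gene need not remove polymerase from its promoter.

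Most sites without a canonical E-box held a variant form close to the summit. A variant E-box was found within 100 bp of the summit in 800 of 1237 sites, or 64.7% (95% Wilson interval 62.0 to 67.3). The most frequent form was CACGCG, in 35.5% of sites, followed by CACGAG in 16.7%, CATGTG in 12.1%, CATGCG in 10.3% and AACGTG in 8.25%. A single form was present in 600 sites, 2 forms in 178, 3 in 20 and 4 in 2. The intervals cover counting error only, and sites in neighbouring genes are not independent.

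Other promoters held variant forms less often. At POL2 promoter sites over 1 kb from any MYC site and without CACGTG, the share was 24.2% of 11258 sites, and at canonical TSSs of all coding genes without CACGTG it was 25.9% of 18825. In windows of the same length centred 400 bp to either side of the MYC summits it was 25.7%, and 2 kb away it was 19.2%. CACGCG alone was present in 9.48% of the POL2 promoter sites, CACGAG in 5.36%, CATGTG in 4.35%, CATGCG in 4.51% and AACGTG in 3.44%. Each of the 5 forms was thus more frequent at the MYC sites than at the POL2 promoter sites. Only 23 of the 127 sites with CATGCG held the longer NRF1 string.

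The same comparison was made library by library. In WT replicates 1, 2 and 3 the share of sites with a variant E-box was 81.9%, 85.9% and 78.8%, and in SLK-KO replicates 1, 2 and 3 it was 68.3%, 68.5% and 69.9%. The E-box sites of the same libraries gave 40.8%, 46.8%, 36.9%, 38.7%, 40.1% and 40.0%, and the flanks of the sites without an E-box gave 25 to 29.4%. In each library the sites without CACGTG had the highest of the 3 shares. The mean difference from E-box sites was 35.0 percentage points (SD 6.32, n = 6 libraries, higher in 6 of 6, exact sign-flip permutation test, two-sided, p = 0.03125, Benjamini-Hochberg adjusted p = 0.0375 over 6 tests). Against the flanks it was 48.8 percentage points (SD 6.57, n = 6, higher in 6 of 6, exact permutation p = 0.03125, adjusted p = 0.0375). This p is the smallest that 64 sign flips can give, and because libraries share many sites it measures only the spread between them.

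**Figure D1:**
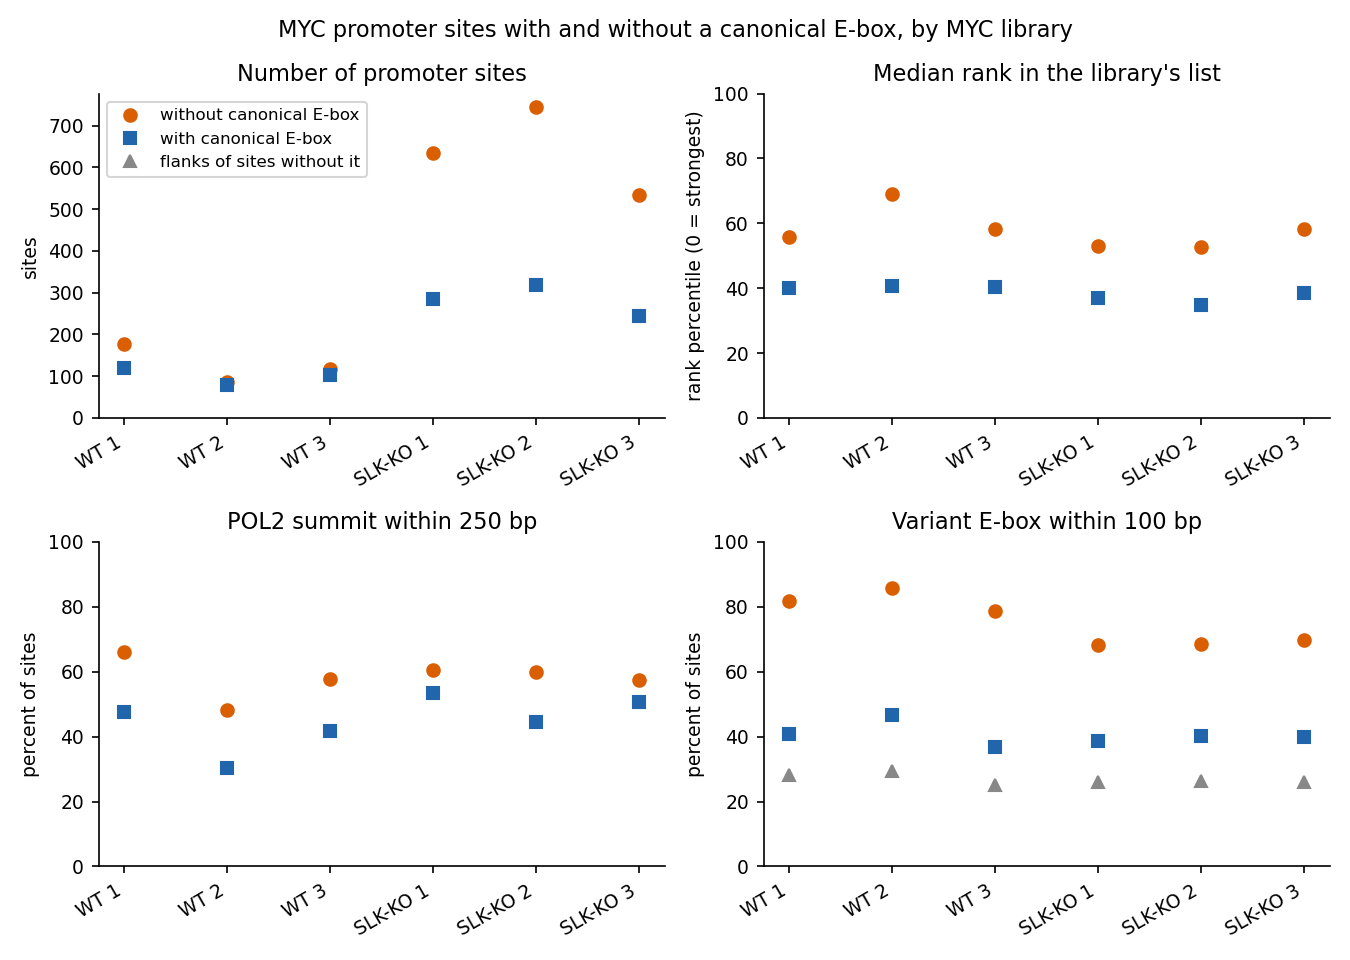
The 4 panels give, for each of the 6 MYC libraries (x axis), the number of promoter sites, the median rank percentile of the site's best summit (0 is the strongest), the percent of sites with a POL2 summit within 250 bp, and the percent with a variant E-box within 100 bp. Orange circles are sites without a canonical E-box, blue squares are E-box sites and grey triangles are flanks centred 400 bp away; the circles lie above the squares in all 4 panels.

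The variant forms were concentrated at the summit. Within 20 bp on either side of the summit there were 13.3 copies of any variant form per 100 sites per 20 bp, against 3.25 in the outer part of the 1 kb profile, a ratio of 4.10. The ratio was 5.47 for CACGCG, 4.39 for CATGCG, 4.28 for CACGAG and 3.76 for CATGTG, while AACGTG reached 1.39. Another pair of E-box hexamers, CAGCTG and CACCTG, which are bound by other helix-loop-helix or zinc finger factors, gave a joint ratio of 1.15. At E-box sites CACGTG itself had a ratio of 51.2 and the variant forms 1.96. The ratio of CACGTG there follows in part from the rule, which required CACGTG within 100 bp of the summit. It is not a measure to set beside those of the variant forms. The nearest variant lay at a median of 27.5 bp from the summit in the 800 sites that held one, close to the 23.5 bp of CACGTG in E-box sites.

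**Figure D2:**
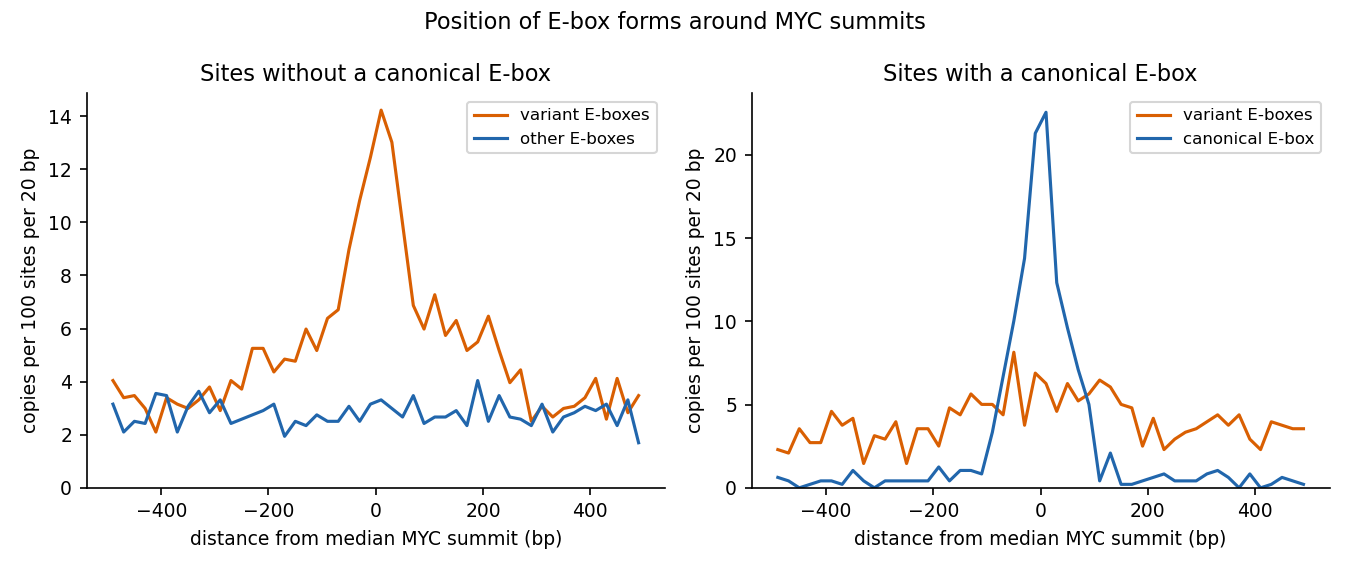
Copies per 100 sites per 20 bp (y axis) against distance from the median MYC summit in bp (x axis), for sites without (left) and with (right) a canonical E-box. Variant forms peak at the summit on the left, with a mean of 13.3 copies within 20 bp of it against 3.25 farther out. The 2 other E-box hexamers have means of 3.23 against 2.81. The canonical E-box peaks on the right, where the rule required it within 100 bp of the summit.

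A search over all hexamers, which did not use the variant list, ranked 4 of the 5 forms near the top. Each of 2080 hexamers, counted together with its reverse complement, was scored by the percent of sites that held it within 50 bp of the summit over the percent in equal windows 400 bp away. Among the 551 hexamers present in at least 5% of the centres, CATGCG had the highest ratio (7.11% against 1.50%, ratio 4.76), CACGCG the second (23.4% against 5.17%, ratio 4.52) and CACGAG the third (10.7% against 2.55%, ratio 4.19). CATGTG, listed under its reverse complement CACATG, was the fifth (8.81% against 2.59%, ratio 3.41). AACGTG was present in 4.28% of the centres, under the 5% minimum, and in 2.59% of the flanks (ratio 1.66). CAGCTG had a ratio of 1.04 and CACCTG of 0.979. Ranked by the difference instead of the ratio, CACGCG was second (18.2 percentage points) behind CGCGGC (18.6), and most of the other leading hexamers were made only of G and C. GC content itself was higher at the centre, with a median of 69.2% against 59.7% in the flanks.

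The bases beside the variant hexamers also differed between centre and flank. CACGAG was followed by G in 66.4% of 134 copies within 50 bp of the summit and in 44.6% of 65 copies in the flanks. For CACGCG the base after it was G in 53.1% of 324 copies against 30.2% of 139, and T in 7.10% against 19.4%. CATGTG was preceded by C in 53.8% of 117 copies against 34.8% of 66. These are descriptions without a test, and a copy can share its bases with an overlapping one.

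No variant form was found in 437 sites (35.3%). BECN1, RPL5 and RPL8 were the 3 sites of this kind present in all 6 MYC libraries. Near these 437 summits the hexamer with the highest centre-to-flank ratio was ACGCCG (13.0% against 3.55%, ratio 3.68), and ATGGCG, part of the common YY1 motif, was sixth (9.84% against 3.43%). A GC box of the SP and KLF factors, GGGCGG, was present in 58.4% of them and in 56.0% of the 800 sites with a variant form. The ETS string CCGGAAG was present in 10.8% and 12%, and the NFY string CCAAT in 12.8% of each set. None of the other 14 motifs searched was present in 93 of the 437 sites (21.3%).

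Of the motifs of other promoter factors, the GC box and the E2F string TTTCCCGC were more frequent than at POL2 promoter sites away from MYC, and the CCAAT and TATA boxes were less frequent, with Wilson intervals that did not overlap. GGGCGG was present in 56.8% of all sites without an E-box against 48.5% of POL2 promoter sites, CCGGAAG in 11.6% against 10.1%, and the YY1 string AAGATGGC in 3.96% against 3.92%. The NRF1 string was present in 1.86% against 1.91%. CCAAT was present in 12.8% against 15.98%, and the TATA box TATAAA was present in 1.70% against 3.92%. TTTCCCGC was found in 26 sites, or 2.1% against 1.21%. Its share at canonical TSSs was 1.35%, with a Wilson interval that overlapped that of the sites without an E-box. A second E2F string, TTTGGCGC, was present in 0.485% against 0.462% of POL2 promoter sites. E-box sites held GGGCGG in 58.9%, CCAAT in 11.7%, TATAAA in 1.25% and TTTCCCGC in 0.835%, and the Wilson intervals of the 2 MYC classes overlapped for each of these 4 strings. The share of canonical TSSs of coding genes with these strings was 53.2% for GGGCGG, 11.1% for CCGGAAG, 3.68% for AAGATGGC, 2.83% for the NRF1 string, 25.5% for CCAAT and 6.86% for TATAAA. The YY1 string, with 49 sites, was concentrated at the summit (0.647 copies per 100 sites per 20 bp against 0.117, ratio 5.52).

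GC content was close to that of E-box sites. Both groups had a median GC content of 69.2% in the window of 201 bp, and the quartiles of the sites without an E-box were 63.2 and 73.6%. The mean difference over libraries was −0.180 percentage points (SD 0.585, n = 6, higher in 3 of 6, exact sign-flip permutation p = 0.5, adjusted p = 0.5), with library differences between −0.917 and 0.731. The observed-to-expected CpG ratio had a median of 0.878 in sites without an E-box, 0.852 in E-box sites and 0.813 in POL2 promoter sites, whose median GC content was 66.2%. A few sites lay outside CpG-rich sequence, and 2.67% had a GC content under 50%. POLR3A, which encodes the largest subunit of RNA polymerase III, was one of them at 41.8%.

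Sites without a canonical E-box ranked below E-box sites of the same library. Their median rank percentile in the library's list was 55.9, 69.2 and 58.2 in WT replicates 1, 2 and 3 and 53.0, 52.6 and 58.2 in the SLK-KO replicates. For E-box sites the values were 40.0, 40.8 and 40.4 in WT and 37.1, 34.9 and 38.5 in SLK-KO, so the 2 classes did not overlap. The mean difference was 19.3 percentile points (SD 4.68, n = 6, larger in 6 of 6, exact sign-flip permutation p = 0.03125, adjusted p = 0.0375), and single libraries ranged from 15.9 to 28.4.

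The sequence of the sites changed along the ranking. With each list divided into 5 equal parts, 35.7 to 56.8% of promoter sites lacked CACGTG in the strongest part, and 67.4 to 84.1% in the weakest. The share of these that held a variant form was 83.2 to 100% in the strongest part and 49.4 to 82.8% in the weakest. The weakest part had a larger share of sites without CACGTG, and a smaller share with a variant form, in each of the 6 libraries. WT bins were thin, down to 10 sites, and no test was made.

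**Figure D3:**
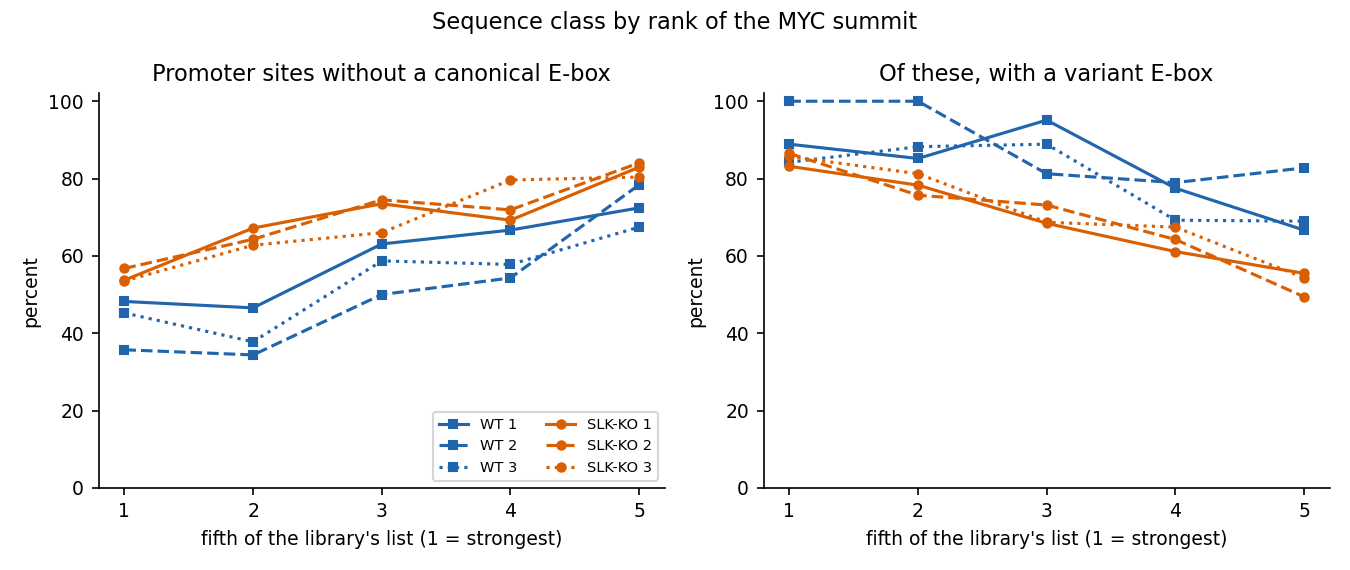
The left panel gives the percent of promoter sites without a canonical E-box and the right panel the percent of these with a variant E-box (y axes), by 5 equal parts of the library's list from strongest to weakest (x axis). Each line is 1 MYC library, WT in blue squares and SLK-KO in orange circles; the left lines end between 67.4 and 84.1% and the right lines between 49.4 and 82.8%.

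The number of libraries that shared a site gave a similar picture. Of sites without an E-box found in 1, 2, 3, 4, 5 and 6 libraries, 57.3%, 68.5%, 75.3%, 82.5%, 83.0% and 90.3% held a variant form, for 705, 251, 146, 57, 47 and 31 sites. Among all promoter sites, the share without CACGTG was 77.4% of those in 1 library and 43.7% of those in 6. Mean GC content moved little over the same groups, from 67.8% in 1 library to 69.0% in 6.

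POL2 lay beside these sites more often than beside E-box sites. A summit of the same-numbered POL2 library lay within 250 bp of 66.1%, 48.2% and 57.6% of sites in WT replicates 1, 2 and 3 and of 60.5%, 59.8% and 57.6% in the SLK-KO replicates. The E-box sites gave 47.5%, 30.4%, 41.7%, 53.5%, 44.5% and 50.6%, lower in each library, and the lowest WT values belonged to the replicate with the shortest POL2 list. The mean difference was 13.6 percentage points (SD 5.28, n = 6, higher in 6 of 6, exact sign-flip permutation p = 0.03125, adjusted p = 0.0375). With the sites moved by 10 kb, 1.18 to 5.09% had a POL2 summit. Over any of the 6 POL2 libraries, 77.2% of sites without an E-box and 67.4% of E-box sites had POL2.

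The sites without CACGTG also lay closer to the start of transcription. Their median distance to the nearest coding TSS was 91, 86 and 85.5 bp in WT and 104, 105.5 and 107 bp in SLK-KO, against 132, 107 and 147 bp and 117, 134 and 134 bp for E-box sites. The mean difference was −32.0 bp (SD 17.1, n = 6, negative in 6 of 6, exact sign-flip permutation p = 0.03125, adjusted p = 0.0375). It was −21.0 bp, with an exact permutation p of 0.0625, when only summits with a score of at least 5 were used, and −19.7 bp without WT replicate 3. Of the sites, 591 (47.8%) lay within 100 bp of a start and 567 (45.8%) lay upstream of it. Starts of coding genes on both strands lay within 1 kb of 184 sites (14.9%) and of 15.9% of E-box sites.

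The edges of the rule touched few sites. A CACGTG centre lay 103 bp or less from the summit, just outside the window, at 6 sites, and 98 to 150 bp away at 68. No CACGTG was found within 1 kb of 763 sites (61.7%). On the other side of the rule, 31 of the 479 E-box sites had their CACGTG 80 bp or more from the summit. TSS distance was 900 to 1000 bp for 4 sites, and 12 MYC sites lay just beyond 1000 bp, of which 6 lacked CACGTG.

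More sites of this class were found in SLK-KO than in WT lists. There were 177, 85 and 118 sites in WT replicates 1, 2 and 3 and 635, 744 and 535 in SLK-KO, with no overlap. The mean log2 ratio was 2.38 (exact permutation test of 3 against 3, two-sided, p = 0.1, adjusted p = 0.167 over 5 tests), and 0.1 is the smallest p this design allows. E-box sites numbered 120, 79 and 103 in WT and 284, 319 and 245 in SLK-KO. Of the promoter sites, 59.6%, 51.8% and 53.4% lacked CACGTG in WT and 69.1%, 70.0% and 68.6% in SLK-KO, a mean of 54.9% ± 4.11 (SD, n = 3) against 69.2% ± 0.709 (SD, n = 3; exact permutation p = 0.1, adjusted p = 0.167).

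These numbers moved with the length of the lists. When each list was reduced to its 201 best-scored summits, the sites without an E-box numbered 86, 85 and 83 in WT and 80, 91 and 86 in SLK-KO, a log2 ratio of 0.015. The share without CACGTG was then 52.1%, 51.8% and 49.4% in WT and 51.3%, 56.5% and 53.8% in SLK-KO, and the groups overlapped. The share with a variant form, 82.2% ± 3.54 in WT libraries and 68.9% ± 0.848 in those of SLK-KO over the full lists (SD, n = 3 each, no overlap, exact permutation p = 0.1, adjusted p = 0.167), became 90.7%, 84.7% and 85.5% against 81.3%, 84.6% and 84.9%. In the full lists each of the 5 single forms was present at shares that did not overlap between genotypes, higher in WT for 4 and lower in WT for AACGTG, at 5.08%, 5.88% and 5.08% against 8.03%, 9.01% and 8.41%. At equal length the shares of all 5 overlapped, with AACGTG at 4.65%, 7.06% and 4.82% against 6.25%, 8.79% and 8.14%. CATGTG was present in 20.9%, 30.6% and 26.3% of WT sites and 14.5%, 14.2% and 15.3% of SLK-KO sites in the full lists, which did not overlap, and in 25.6%, 30.6% and 31.3% against 25%, 29.7% and 29.1% at equal length, which did. The differences at equal length were 2.73 percentage points for the share without CACGTG and −3.40 for the variant share. Genotype and list length cannot be told apart in the full lists.

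Over the full lists the POL2 share and GC content overlapped between genotypes. The POL2 share of sites without an E-box was 57.3% ± 8.94 in the WT libraries and 59.3% ± 1.52 in those of SLK-KO (SD, n = 3 each, exact permutation p = 0.8, adjusted p = 0.8). The difference of 1.96 percentage points turned to −2.36 without WT replicate 2 and to −6.71 when POL2 lists were reduced to equal length. With POL2 lists of equal length and full MYC lists, the POL2 shares were 53.7%, 48.2% and 53.4% in WT and 44.9%, 44.5% and 45.8% in SLK-KO. These did not overlap (exact permutation p = 0.1, the smallest this design allows). With MYC lists of equal length and full POL2 lists, they were 65.1%, 48.2% and 57.8% in WT and 72.5%, 58.2% and 61.6% in SLK-KO. Those overlapped, and the difference was 7.06 percentage points (exact permutation p = 0.4). GC content was 68.9% ± 0.827 and 68.1% ± 0.422 (SD, n = 3 each, exact permutation p = 0.3, adjusted p = 0.375). The median TSS distances given above, 85.5 to 91 bp in WT and 104 to 107 bp in SLK-KO, did not overlap in the full lists, and this difference between genotypes was not among the tests. At equal MYC list length they were 77, 100 and 86 bp in WT and 71.5, 107 and 84 bp in SLK-KO, which overlapped.

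Few sites were shared by all libraries. Of the 1237 sites, 705 (57.0%) were found in 1 library and 31 (2.51%) in all 6, against 3.58% of all MYC sites and 8.35% of E-box sites in all 6. Presence in 3 SLK-KO and 0 WT libraries was seen for 91 sites (7.36%), near the 6.94% of all MYC sites, and for 6.89% of E-box sites. No site was present in 3 WT and 0 SLK-KO libraries, as for all MYC sites (0%). Any SLK-KO library and no WT library held 983 sites (79.5%), both genotypes 221 (17.9%), and WT alone 33 (2.67%), near the 77.5%, 19.5% and 3.02% of all MYC sites. Each of the 91 sites found in at least 2 WT libraries was also found in an SLK-KO library, as was each of 83 such E-box sites.

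The site with the best ranks lay at BRWD1, a bromodomain and WD-repeat protein gene (ENSG00000185658.14). Its summits spanned chr21:39313692-39313817, in annotated UTR 42 bp downstream of a start, and it held CACGCG and CACGAG. It ranked 4th, 19th and 3rd in WT replicates 1, 2 and 3 and 2nd, 3rd and 5th in SLK-KO. RPS24, a protein of the small ribosomal subunit (ENSG00000138326.21), had its summits at chr10:78033987-78034096, in an intron 183 bp downstream of the start, and held CACGCG 55.5 bp from the summit. Its ranks were 16, 17 and 13 in WT and 8, 31 and 10 in SLK-KO. Both sites were near the top of every list, and POL2 lay beside RPS24 in all 6 POL2 libraries and beside BRWD1 in 5.

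PPAN-P2RY11, EIF3B and BECN1 completed the 5 best of those in all 6 libraries. The site named for the read-through gene PPAN-P2RY11 (ENSG00000243207.6) lay at chr19:10106376-10106395, 11 bp upstream of a start of that gene. It held CACGAG 6.5 bp from the summit and ranked 66, 24 and 11 in WT and 16, 9 and 13 in SLK-KO. PPAN is a ribosome biogenesis factor. EIF3B, a subunit of the translation initiation factor eIF3 (ENSG00000106263.19), had its summits at chr7:2354764-2354832, 16 bp upstream of a start, with CATGTG 15.5 bp away, and ranked 8, 30 and 18 in WT and 20, 14 and 30 in SLK-KO. BECN1, an autophagy gene (ENSG00000126581.13), had its summits at chr17:42833211-42833358 in annotated UTR. It held no variant form, had CACGTG 111.5 bp from the summit, beyond the window, and ranked 23, 141 and 16 in WT and 39, 37 and 25 in SLK-KO. PSME3, a proteasome activator gene with a start within 1 kb, shares this site. Over the 31 sites in all 6 libraries, 26 held a variant within 50 bp of the summit and 16 held CACGCG within 100 bp. POL2 lay beside 10 of them in all 6 POL2 libraries and beside 4 in none, among them SMARCC1, a subunit of the SWI/SNF chromatin remodeller, and MCM7, a subunit of the replicative helicase.

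Of the 91 sites in SLK-KO lists only, the best ranked belonged to NCBP2, the small subunit of the nuclear cap-binding complex (ENSG00000114503.11), at chr3:196942490-196942530 in annotated UTR. It held CACGAG and ranked 70, 58 and 159 in SLK-KO replicates 1, 2 and 3. MYC itself (ENSG00000136997.22) had a site at chr8:127738355-127738503, in a coding exon 660 bp downstream of a start, with no variant form, no CACGTG within 1 kb and no POL2 summit within 250 bp in any library. Its ranks were 47, 117 and 79. TRMT1, a tRNA methyltransferase, held CATGTG and AACGTG and ranked 104, 278 and 132. RPL29, a protein of the large ribosomal subunit, and RPP40, a subunit of RNase P, held no variant form and had ranks of 133, 1184 and 158 and of 201, 1295 and 107. NCBP2 and RPL29 had POL2 in all 6 POL2 libraries. Ranks beyond the 365 summits of the longest WT list have no counterpart in WT.

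Coding genes with a site without an E-box within 1 kb of a start numbered 1358, and 546 had an E-box site. Both kinds were present at 73 genes. The gene lists below were compared on genes that had POL2 within 1 kb of a start, of which 12.9% of 10428 had a site without an E-box and 5.09% had an E-box site. The lists were not chosen independently of earlier results on these data, and counts are given without a test.

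Genes of protein synthesis stood well above the 12.9%. Of 75 cytosolic ribosomal protein genes with POL2, 42 (56.0%) had a site without an E-box and 17 (22.7%) an E-box site. RPL5 (ranks 52, 85 and 160 in WT and 28, 17 and 38 in SLK-KO), with no variant form, and RPL14 (ranks 50, 117 and 34 in WT and 27, 102 and 171 in SLK-KO), with 3 forms, were in all 6 libraries. Of 33 aminoacyl-tRNA synthetase genes, which charge tRNAs with amino acids, 16 (48.5%) had such a site and 2 an E-box site. YARS1 was found in WT replicates 1 and 3 and all SLK-KO replicates, TARS1 in WT replicate 1 and all SLK-KO replicates, and KARS1 in SLK-KO only, each with a variant form. Among 58 translation factor genes 21 (36.2%) had a site, including EIF4G1, the scaffold of the cap-binding complex, and EIF4A1, its RNA helicase, which was in 3 SLK-KO and 0 WT libraries.

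Nucleolar and mitochondrial protein synthesis genes differed in how they divided between the classes. Of 50 ribosome biogenesis and nucleolar genes, 22 (44%) had a site without an E-box and 18 (36.0%) an E-box site. POLR1B, a subunit of RNA polymerase I, was in all 6 libraries with CATGTG 7.5 bp from the summit, DDX21, a nucleolar helicase, in 5 with CACGCG, and RRP1 in 5 with CACGCG. Of 72 mitochondrial ribosomal protein genes, 18 (25%) had a site without an E-box and 1 had an E-box site. MRPL24 and MRPL48 were in 5 libraries and MRPL42 in 4, all with CATGTG. Mitochondrial import and chaperone genes had 14 of 33 (42.4%), with TOMM20, an outer membrane receptor, HSPD1, the matrix chaperonin, and TIMM23B in SLK-KO lists only. Presence in SLK-KO lists only was shared by 79.5% of all sites without an E-box. TIMM23B has a near-identical paralogue, so its reads may be split with another locus. Respiratory chain genes had 6 of 67 (8.96%), under the background.

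Splicing factor genes had 29 of 79 (36.7%) and 6 with an E-box site. HNRNPF, which binds G-rich RNA, and SNRPD1, a core protein of the small nuclear ribonucleoproteins, were in all 6 libraries. The site of HNRNPA2B1 was also in all 6 and is shared with CBX3, whose start is nearer. Nucleotide and one-carbon synthesis genes had 7 of 28 (25%) without an E-box and 9 (32.1%) with an E-box site, a difference of 2 genes. GART and MTHFD2, enzymes of purine and folate metabolism, and CTPS1, which makes CTP, held CATGTG or CACGAG.

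The next 5 lists lay between 5.06 and 17.9%. The proteasome list had 7 of 39 (17.9%), chaperonin and heat shock genes 7 of 50 (14%), cell cycle and replication genes 6 of 54 (11.1%), chromosome 19 zinc finger genes 18 of 173 (10.4%) and POL2 machinery and Mediator genes 4 of 79 (5.06%). MCM7 was the cell cycle gene in all 6 libraries, with ranks of 47, 20 and 20 in WT and 30, 36 and 60 in SLK-KO. ZNF121 was the zinc finger gene in all 6. The MYC and MAX network list was small and above the background: of 17 genes 5 (29.4%) had a site, among them MYC, RUVBL1, an ATPase of chromatin complexes, and MGA, a MAX partner, all in SLK-KO lists only. SLK-KO lists alone held 79.5% of all sites without an E-box. None of 48 replication-dependent histone genes had one.

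**Figure D4:**
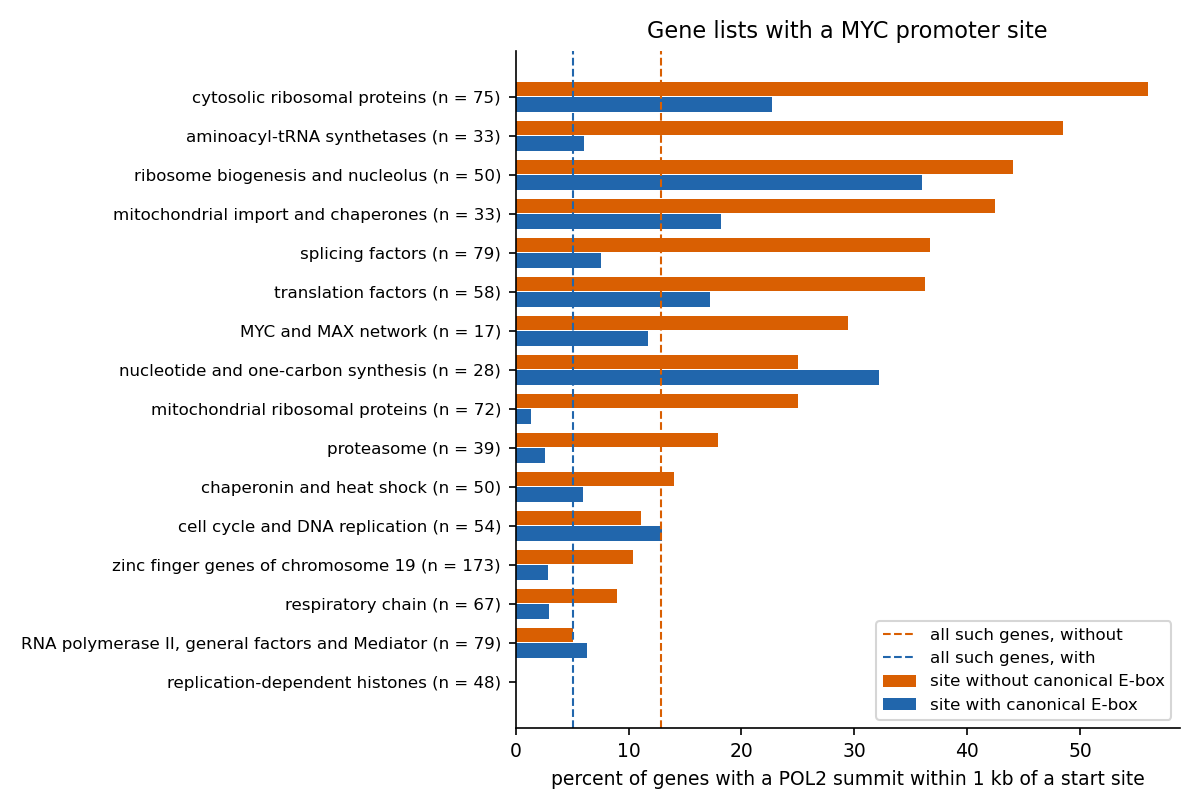
Bars give the percent of genes (x axis) with a MYC promoter site without (orange) or with (blue) a canonical E-box, for 16 gene lists (y axis), over genes that had POL2 within 1 kb of a start (n in the label). Dashed lines mark all such genes, at 12.9% and 5.09%; cytosolic ribosomal protein genes reach 56.0% and histone genes 0%.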

How the data were processed

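The 12 deposited lists (3 MYC and 3 POL2 libraries per genotype) give 1-bp summits with a score that the authors deposited and that was read as a −log10 q-value, since the lowest score, 1.30169, lies just above −log10 of 0.05. The submitters' processing notes name BWA 0.7.18-r1243 and MACS3 3.0.1; caller options and control libraries are not given in the sources used here. The IgG and Input samples were not analysed here.

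Sites, classes and measures were computed in Python 3.11.15 with pysam 0.24.0 on GRCh38 and GENCODE release 44, using starts of protein-coding transcripts of coding genes (78462 starts). Positions on 14 sequence names without annotation (53 MYC summits) could not be promoter sites. Within-library differences were tested by 64 exact sign flips over 6 libraries and genotype differences by 20 exact relabellings, with Benjamini-Hochberg adjustment over 6 and 5 tests. Functions were tested on simulated data. Summit lists carry no depth, so precision rests on the number of sites and libraries. p-values measure spread between these libraries.

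Named sites were up to 5 with the best median rank in all 6 libraries, up to 5 in 3 SLK-KO and 0 WT libraries or the reverse, and up to 3 per gene list in most libraries. Further sites in all 6 libraries and the printed sequences were chosen after their values were seen. Members, gene lists and motifs were chosen with earlier results of these data known. Alternatives varied windows, distances, score, list length, variant forms and libraries. Some items are not reported here.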

Additional observations from a re-analysis of the deposited data

How the results depend on the processing

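Over the alternatives with all 6 libraries, 53 of 54 within-library values kept their direction and side of the threshold. Of the counts, 44 of 56 stayed within 1.5 times, over alternatives that include those without 1 library. The genotype tests cannot pass the threshold at any setting, so for them only direction was compared, and it was kept in 77 of 79 values. Their size was not always kept: with MYC lists of equal length the log2 ratio of numbers fell from 2.38 to 0.015 and the variant share difference went from −13.3 to −3.40. Within-library sizes also moved with all 6 libraries kept. The rank difference ran from 12.8 (score of 5 or more) to 21.4 (E-box window of 50 bp). The POL2 difference ran from 9.51 (E-box window of 50 bp) to 15.5 (POL2 lists of equal length). Variant share against E-box sites ran from 13.6 (CATGTG only) to 42.7 (MYC lists of equal length). The use of every transcript start of coding genes, added after seeing the data, changed no call and gave 1276 sites. With summits of score 5 or more, the TSS difference was −21.0 bp and no longer passed (exact permutation p = 0.0625), and there were 687 sites, 20 in all 6 libraries and 51 in SLK-KO lists only, in all 3. Chaining at 100 bp gave 58 of the last kind. Lists of equal length gave 231 sites, 16 in all 6, 4 found only in the 3 SLK-KO libraries and 2 found only in the 3 WT libraries. The POL2 share difference between genotypes turned to −6.71 with POL2 lists of equal length and was 7.06 with MYC lists of equal length. Leaving out 1 library leaves 5, for which the smallest p is 0.0625, so the within-library tests could not pass: differences were 17.6 to 20.3 for rank, 12.4 to 15.1 for POL2, 33.5 to 34.9 for variant share against E-box sites, 46.7 to 50.4 against flanks, and −39.4 to −19.7 bp for TSS distance. Sites in all remaining libraries then numbered 32 to 58 (58 without WT replicate 2). Those in all remaining SLK-KO and 0 WT libraries numbered 102 to 201 (151 without SLK-KO replicate 1 and 201 without replicate 3). Those in all remaining WT and 0 SLK-KO libraries numbered 0 to 1. The genotype difference in POL2 share ran from −2.36 (without WT replicate 2) to 6.01. With CATGTG as the only variant form, the share exceeded E-box sites by 13.6 and flanks by 15.7 percentage points, and the genotype difference was −11.2. Same-numbered libraries did not deviate together (r of 0.0374, 0.0413 and −0.0194), and a fit with the replicate number as a block gave the same differences (log2 2.38, 14.3, −13.3, 1.96 and −0.788) with exact permutation p of 0.25, the smallest 8 flips allow, for the first 3.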

Other observations

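The sites were spread over the genome unevenly. Chromosome 1 held 13.3% of sites without an E-box and 10.3% of coding TSSs, and chromosome 20 held 4.53% against 2.72%. The share was lower than that of TSSs on chromosome 22 (6 sites, 0.485% against 2.24%), chromosome X (1.94% against 4.28%) and chromosome 4 (1.86% against 3.77%). E-box sites were also below the TSS share on these chromosomes, at 1.25%, 2.09% and 1.46%. Chromosomes 1 and 20 held 10.65% and 3.34% of E-box sites. Chromosome copy number in PC-3 cells was not measured in these files. In all, 87 coding genes had 2 or more sites without an E-box within 1 kb of a start. Both RPS24 and POLR3A, which are neighbours on chromosome 10, had a site in all 6 libraries.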
